A study of Mus musculus with 4 samples.

Results

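miRNA levels in mouse macrophages that lack miR-146a were set directly against those in macrophages whose miR-146a keeps its seed but carries a changed 3′ part. The comparison uses 2 of the 4 small RNA libraries of the study, chosen by their labels: 1 from mir-146a knock-out cells (KO) and 1 from non-seed swap cells (3′F). The other 2 libraries, WT A and WT B, come from wild-type cultures, and WT B over WT A gave the spread between cultures of 1 genotype. KO and 3′F carry the replicate letter A, as WT A does, and the study gives these letters as identifiers of cultures. WT B over WT A thus crosses letters and KO over 3′F does not. Whether libraries with the same letter were cultured together is not stated. Each library lists 1979 mature miRNAs, of which 251 counted as expressed, with a mean of at least 10 reads per 1000000 counts (RPM) over the 4 libraries. All cells were bone marrow–derived macrophages (BMDMs), grown in M-CSF at 10 ng/ml for 8 to 9 days and then rested for 16 h without LPS. The donors were mice of 6 to 7 months on a mixed 129 and B6 background, 3 of each genotype, and whether their cells were pooled in a library is not stated. Both mutant alleles were homozygous and were kept in separately bred colonies, so that allele, colony and culture cannot be told apart in a comparison of 1 library with 1 library.

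A miRNA is a short RNA that guides the silencing complex to messenger RNAs, chiefly by pairing of its seed, bases 2 to 8 from the 5′ end, with sites in their 3′ UTRs. Bases beyond the seed can add pairing at some sites. The miR-146 family, miR-146a and miR-146b, is transcribed in response to NF-kB and restrains signalling through Toll-like receptors by targeting pathway members such as Irak1 and Traf6. KO macrophages retain the miR-146 seed only in miR-146b, whereas 3′F macrophages retain it in miR-146b and in the altered miRNA.

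The family is shown with its seed in capitals, because the seed is what the genotypes keep or lose.
miR-146a-5p: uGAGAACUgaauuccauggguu
miR-146b-5p: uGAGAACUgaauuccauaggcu
3′F miRNA: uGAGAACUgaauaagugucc
The first and second are mature RefSeq sequences, and the 3′F sequence is the 20 nt RNA part of the synthetic mimic designed by the study. Counted from 1 at the 5′ end, the 3′F mimic differs from the wild-type mimic at 8 positions, from U13A to G20C. Against miR-146a-5p, miR-146b-5p carries G18A and U21C. In the RefSeq set, which matched 1679 of the 1979 miRNAs by name, 2 mature mouse miRNAs hold this seed. With the 3′F miRNA they make up the seed family as counted here. The seeds of the unmatched miRNAs were not examined.

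Apart from the family, 6 of the 7 other miRNAs that lay at least 2-fold apart between KO and 3′F have a mature RefSeq sequence in the set used. These are shown, again with bases 2 to 8 in capitals, in order of their ratio from highest in KO to lowest.
miR-139-3p: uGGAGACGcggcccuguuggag
miR-298-5p: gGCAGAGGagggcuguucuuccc
miR-582-3p: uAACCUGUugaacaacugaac
miR-147-5p: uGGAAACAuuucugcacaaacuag
miR-212-5p: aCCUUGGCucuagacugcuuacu
miR-504-5p: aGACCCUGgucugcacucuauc
The remaining one is miR-34c-5p. No pair among these sequences shares a seed, and none has the miR-146 seed.

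The libraries held 11410940 to 19087640 counts, 19087640 in KO and 16194595 in 3′F. A miRNA with 3 counts stands at 0.157 RPM in KO and 0.185 RPM in 3′F. Of the 1979 miRNAs, 931 were above 0 in KO and 923 in 3′F, and miR-21a-5p alone held between 33.4% and 37.9% of a library's counts. Macrophage and myeloid markers were present in both mutants. miR-223-3p, typical of the myeloid lineage, stood at 1636 RPM in KO and 1503 in 3′F, and at 1574 in WT A and 1466 in WT B. Only 1 of the 8 listed stromal and endothelial miRNAs was expressed, and their summed level lay between 21.5 and 25.1 RPM in every library, with miR-145a-5p at 0 in both mutants.

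The targeted miRNA was counted first. miR-146a-5p stood at 13.4 RPM in KO and 6.64 in 3′F, and at 6253 in WT A and 5485 in WT B. Both mutants thus lay far below both WT cultures. The residual amounted to 256.5 counts in KO and 107.5 counts in 3′F. On the log2(RPM + 1) scale, which is used for all log2 ratios below and understates the change of low miRNAs, KO was 0.92 above 3′F. These counts are not whole numbers, which was read as reads divided among several lines, so how much of the difference between the residues comes from shared reads is uncertain. The hairpin is deleted in KO, and by qRT-PCR the study detected no miR-146a in tissues or cells of KO mice. miR-146b-5p outnumbered the residue by 328 to 1 in KO and 244 to 1 in 3′F. The source of the residue was not tested. miR-146a-3p, the other strand of the hairpin, was counted 8 times in WT A, 3 times in WT B and not at all (0 counts) in either mutant.

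The 3′F miRNA had 171 counts in 3′F, or 10.6 RPM, with a 95% Wilson interval of 9.09 to 12.3 that covers counting error only. It was listed at 0 in KO, WT A and WT B, and its level was at least 67.2-fold higher than the 0.157 RPM that 3 counts represent in KO. How many of its molecules were captured depends on how well its particular 3′ end was ligated, so its RPM cannot be set against that of the wild-type miRNA as a ratio of molecules.

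miR-146b-5p, encoded on another chromosome and intact in both mutants, held nearly all of the reads of this family in both mutants, as far as the 3′F miRNA was captured. It stood at 4410.0 RPM in KO and 1619 in 3′F, and at 1558 in WT A and 1916 in WT B. Thus 3′F lay between the WT values and KO above both. KO was 2.72-fold above 3′F, with an exact binomial 95% interval of 2.69 to 2.76 for counting error alone. The log2 ratio was 1.45, against 0.30 between the WT cultures. Its counts too are partly fractional. The other strand of its hairpin, miR-146b-3p, had whole counts of 171 in KO and 52 in 3′F, with 41 in WT A and 38 in WT B. KO was 2.79-fold above 3′F for this strand (interval 2.04 to 3.88), and miR-146b-5p outnumbered miR-146b-3p by 492 to 1 in KO and 504 to 1 in 3′F.

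Summed over the 3 carriers shown above, the miR-146 seed stood at 4423 RPM in KO and 1636 in 3′F, and at 7811 in WT A and 7401 in WT B. By reads as counted, KO was 2.70-fold above 3′F (interval 2.67 to 2.74), a log2 ratio of 1.43 against -0.08 between the WT cultures. The summed level differed by 2788 RPM between the mutants and miR-146b-5p alone by 2791 RPM. miR-146b-5p made up 99.7% of these reads in KO and 98.9% in 3′F, where the 3′F miRNA made up 0.646%. Taken as 1 miRNA, the family would rank at place 29 in KO and at place 39 in 3′F. The sums, shares and ranks of 3′F depend on how well the 3′F miRNA was captured, and their order may not hold for molecules. The sums would be equal with the 3′F miRNA at 2798 RPM, or 265 times the level counted. With the 3′F miRNA at 5485 RPM, the lower WT level of miR-146a-5p, the sum in 3′F would be 7110.45 RPM, above KO, and the 3′F miRNA would be its main carrier. The capture of the 3′F miRNA was not tested. By qRT-PCR, which does not depend on ligation, the study reports levels of the 3′F miRNA similar to wild-type miR-146a in most of its tissues and cell types. Those measurements were not analysed here.

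**Figure D1:**
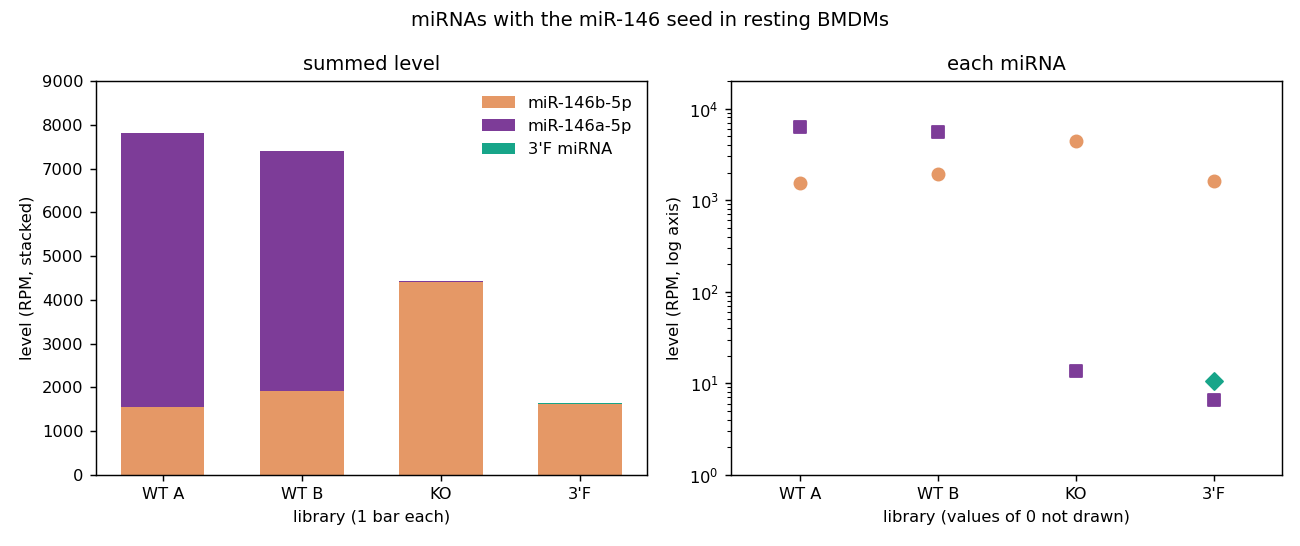
Level of the miRNAs with the miR-146 seed in each of the 4 libraries (x axis, 1 library each), stacked on a linear RPM axis at left and drawn separately on a log RPM axis at right. miR-146b-5p is at 4410.0 RPM in KO and 1619 RPM in 3′F, while miR-146a-5p and the 3′F miRNA lie at or under 13.4 RPM in both mutants and are too small to be seen in the stacked bars.

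Across the 251 expressed miRNAs, KO and 3′F lay farther apart than the WT cultures. The SD of the log2 ratios was 0.401 for KO over 3′F and 0.261 for WT B over WT A, with medians of 0.09 and 0.07. KO over 3′F ran from -2.06 to 1.52 and WT B over WT A from -0.66 to 0.96. A total of 8 miRNAs (3.19% of those expressed) lay at least 2-fold apart between KO and 3′F, 4 higher in KO (1.59%) and 4 lower (1.59%), and 0 (0%) did so between WT B and WT A. At 1.5-fold the count was 24 (9.56%) for KO over 3′F, 13 higher in KO (5.18%) and 11 lower (4.38%), and 9 (3.59%) for the WT cultures. The 13 include the residue of miR-146a-5p. With 1 library per mutant there is no replicate check and no test was made.

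The spread was also compared by level of abundance, taken as the mean RPM over the 4 libraries. Among 125 miRNAs between 10 and 100 RPM the SD was 0.435 for KO over 3′F and 0.285 for WT B over WT A. For the 66 miRNAs between 100 and 1000 RPM these values were 0.425 and 0.239, and for the 60 above 1000 RPM they were 0.284 and 0.232. That last class ran from -0.36 to 1.45 between the mutants and from -0.62 to 0.64 between the WT cultures. Between the mutants 1 miRNA, miR-146b-5p, was at least 2-fold apart, and 0 were between the WT cultures. Past 1.5-fold, there were 2 between the mutants (miR-146b-5p and miR-146a-5p) and 3 between the WT cultures. The 95th percentile of the absolute log2 ratio was 0.472 against 0.559. miR-146a-5p stood at 13.4 RPM in KO and 6.64 in 3′F and entered the class only through its WT level. The 10 most abundant miRNAs, led by miR-21a-5p, miR-27b-3p and let-7i-5p, had log2 ratios between -0.20 and 0.42 for KO over 3′F and between -0.28 and 0.62 for WT B over WT A. The range of these 10 miRNAs was thus narrower between the mutants than between the WT cultures, and 6 of the 8 miRNAs past 2-fold lay between 10 and 100 RPM.

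**Figure D2:**
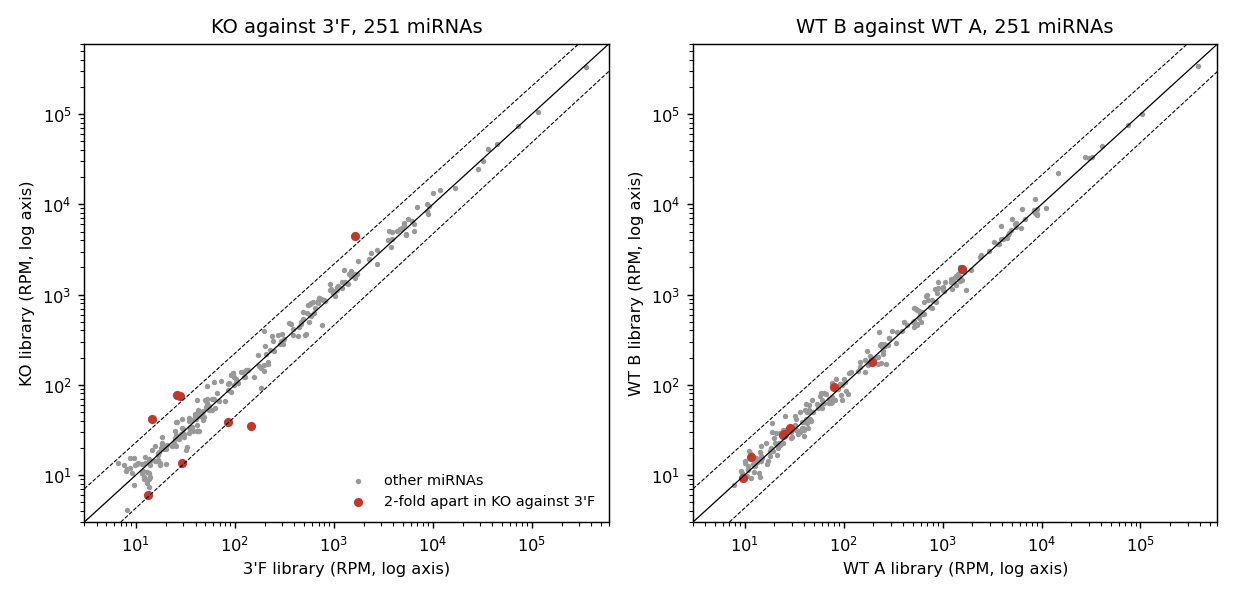
RPM of the 251 expressed miRNAs (1 point each, log axes) in KO against 3′F at left and in WT B against WT A at right. The solid line marks equality and the dashed lines a 2-fold difference of RPM + 1, which 8 miRNAs (red) reach in the left panel and 0 in the right.

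Apart from miR-146b-5p, 3 miRNAs were at least 2-fold higher in KO than in 3′F. miR-139-3p, from a hairpin within an intron of the phosphodiesterase gene Pde2a, stood at 76.1 RPM in KO and 25.9 in 3′F, and at 24.4 in WT A and 27.6 in WT B. Again 3′F lay between the WT values. KO was 2.94-fold above 3′F (interval 2.64 to 3.29, from 1452 and 419 counts). The opposite strand, miR-139-5p, known for restraining the growth of several tumour types, stood at 395 RPM in KO and 198 in 3′F, and at 201 in WT A and 181 in WT B. Its log2 ratio of 0.99 placed it just under the 2-fold threshold, and that of miR-139-3p was 1.52.

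miR-298-5p stood at 41.8 RPM in KO and 14.6 in 3′F, and at 9.61 in WT A and 9.29 in WT B. KO was 2.87-fold above 3′F (interval 2.48 to 3.33), and both mutants lay above both WT cultures. The hairpin of miR-296 is found within 10 kb of its own, in the imprinted Gnas region. miR-296-5p had 101 counts in KO and 23 in 3′F, with 15 in WT A and 15 in WT B, and a log2 ratio of 1.38. miR-296-3p, from the same hairpin, had 157 counts in KO and 110 in 3′F, and its log2 ratio of 0.24 was smaller than the 0.49 between the WT cultures. miR-298-3p had 0 counts in all 4 libraries.

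miR-582-3p, from an intron of another phosphodiesterase gene, Pde4d, stood at 74.7 RPM in KO and 27.8 in 3′F, and at 28.8 in WT A and 33.3 in WT B. KO was 2.69-fold above 3′F (interval 2.41 to 2.99), and 3′F lay just under WT A. Its other strand, miR-582-5p, was below the expression minimum, with 84 counts in KO and 35 in 3′F, and had a log2 ratio of 0.77.

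Of the 4 miRNAs lower in KO, miR-34c-5p lay farthest apart and was the only expressed miRNA past 3-fold. It belongs to the miR-34 family, which p53 activates and which restrains the cell cycle. It stood at 34.5 RPM in KO and 147 in 3′F, and at 193 in WT A and 180.05 in WT B. Both mutants lay under both WT cultures, KO much farther, and 3′F was 4.26-fold above KO (interval 3.91 to 4.65). Its log2 ratio was -2.06, and its counts of 657.5 in KO and 2377.5 in 3′F are not whole numbers.

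The other strands from the cluster that holds this hairpin and that of miR-34b were lower in KO too. miR-34c-3p had 4 counts in KO and 62 in 3′F, with 51 in WT A and 47 in WT B, and a log2 ratio of -2.00. Without the pseudocount, 3′F was 18.2-fold above KO for this strand (interval 6.79 to 69.2). miR-34b-5p and miR-34b-3p had log2 ratios of -1.54 and -1.95, or 3.87-fold and 5.73-fold without the pseudocount. The products of this cluster were thus low in KO and near the WT level in 3′F. miR-34a-5p, which is encoded elsewhere and shares the family seed, stood at 145 RPM in KO and 128 in 3′F, and at 163 in WT A and 139 in WT B. Its log2 ratio was 0.18, with -0.23 between the WT cultures.

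miR-504-5p, which is known to target p53 and whose hairpin lies in an intron of Fgf13 on the X chromosome, stood at 38.6 RPM in KO and 85.8 in 3′F, and at 79.3 in WT A and 94.7 in WT B. Only KO lay outside the WT values. 3′F was 2.23-fold above KO (interval 2.03 to 2.44), a log2 ratio of -1.13. Few reads came from its other strand, miR-504-3p, with 1 count in KO, 7 in 3′F, 3 in WT A and 13 in WT B. Its log2 ratio of -0.45 was smaller in size than the 0.86 between the WT cultures.

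miR-212-5p and miR-132 come from 1 cluster, which is activated by CREB and, in immune cells, by Toll-like receptor ligands. miR-212-5p stood at 13.7 RPM in KO and 29.0 in 3′F, and at 24.9 in WT A and 28.1 in WT B. Here 3′F was 2.12-fold above KO (interval 1.82 to 2.48), and its value lay just above WT B. The log2 ratio was -1.03 for miR-212-5p, -0.46 for miR-212-3p, -0.75 for miR-132-3p and -0.22 for miR-132-5p. All 4 products were therefore lower in KO, but the difference of miR-132-5p was close in size to the -0.15 between the WT cultures.

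miR-147-5p comes from a hairpin that macrophages induce upon Toll-like receptor stimulation and that overlaps an exon of AA467197. It stood at 5.92 RPM in KO and 13.2 in 3′F, and at 11.7 in WT A and 15.9 in WT B. 3′F was 2.22-fold above KO (interval 1.76 to 2.82, from 113 counts in KO and 213 in 3′F) and lay between the WT values. miR-147-3p stood at 5.71 RPM in KO and 11.2 in 3′F, and at 8.96 in WT A and 11.9 in WT B, just under the expression minimum on average, with a log2 ratio of -0.87. WT B was 0.42 above WT A for miR-147-5p, the widest spread of the WT cultures among the 8. miR-147-5p passed the minimum of 10 RPM over the 4 libraries, but not when the mean was taken over KO and 3′F only.

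**Figure D3:**
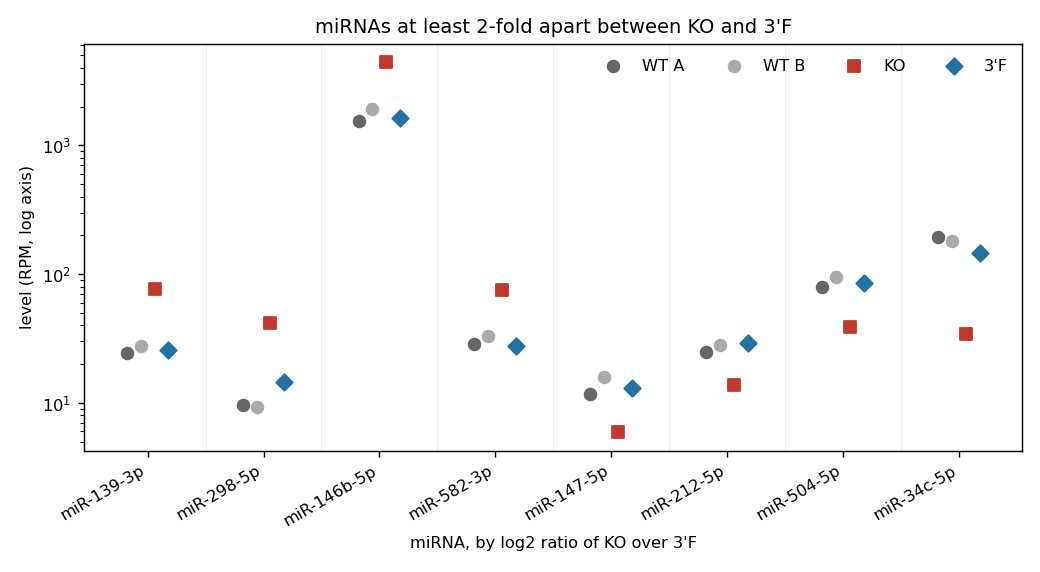
RPM (log axis) of the 8 miRNAs at least 2-fold apart between KO and 3′F, ordered by their log2 ratio, with 1 point for each library. In each of them the KO point lies outside the pair of WT points, and in 4 of them the 3′F point lies between the WT points.

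The position of the 2 mutants relative to WT was compared for these miRNAs. In 8 of the 8, KO lay farther from the nearest WT value than 3′F did. The 3′F value fell between the WT values in 4 of the 8 and the KO value in 0. The same order held less evenly among all 251 expressed miRNAs, of which 58.2% had KO farther from WT and 29.1% had 3′F farther. KO lay between the WT values for 57 of them and 3′F for 83. Among the 24 miRNAs past 1.5-fold, KO lay farther from WT in 20 and 3′F in 4. A value at least 2-fold outside both WT libraries was found for 9 miRNAs in KO (3.59%) and for 2 in 3′F (0.797%), with miR-146a-5p counted in both. Both mutants were set against the same WT libraries, and with 1 library each the genotype and the library cannot be told apart.

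Because the strands of a hairpin are counted from separate reads, the partner products were set beside the 8 miRNAs. All the partner products with counts in KO or 3′F had the sign of the miRNA they accompany, although for miR-132-5p, miR-296-3p and miR-504-3p the difference was close to or smaller than that between the WT cultures. The smallest log2 ratios among them were those of miR-132-5p, at -0.22, and miR-296-3p, at 0.24. These hairpins were chosen for 1 of their strands, so the count has no test. Over the 73 hairpins with both strands expressed, the log2 ratios of the strands had the same sign in 52 for KO over 3′F and in 38 for WT B over WT A. Pearson's r across these hairpins was 0.50 for KO over 3′F and 0.18 for WT B over WT A, and Spearman's rho was 0.48 and 0.11. The strands of a hairpin share a library and its depth, and hairpins are not replicates, so these values are descriptions.

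**Figure D4:**
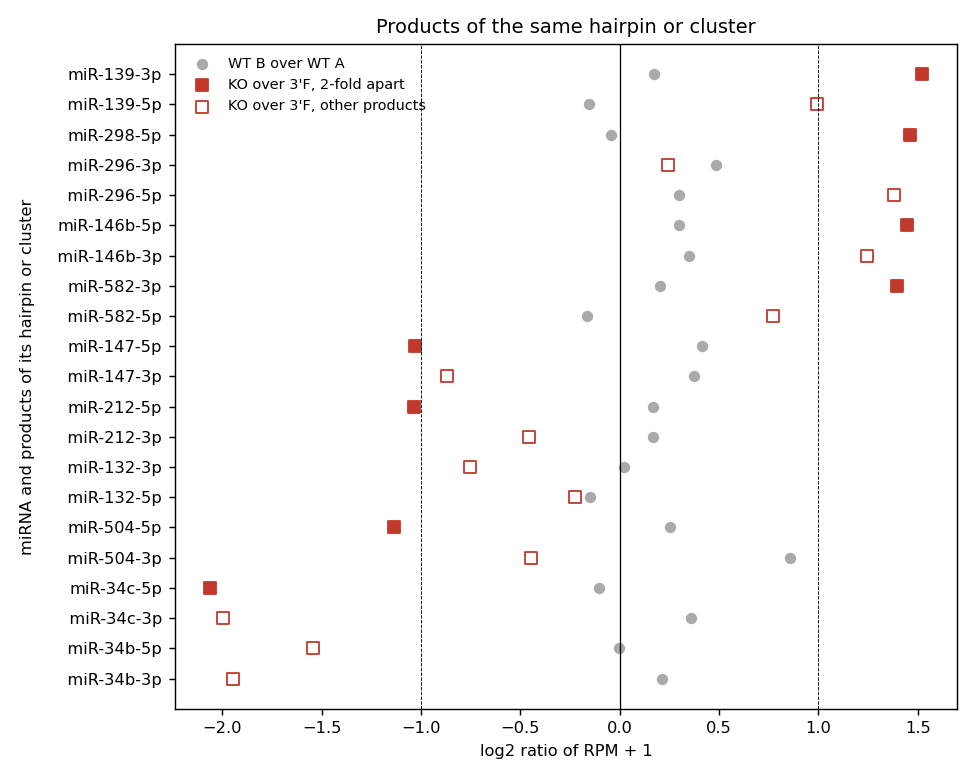
log2 ratio of RPM + 1 (x axis) for the 8 miRNAs at least 2-fold apart (filled squares) and the other products of their hairpins or clusters (open squares), with WT B over WT A in grey. The open squares lie on the same side of 0 as the filled square above them, from -2.00 for miR-34c-3p to 1.38 for miR-296-5p.

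The hairpins lie on several chromosomes. In GRCm38, RefSeq places Mir139 on chromosome 7 (101475376 to 101475443, plus strand), Mir298 on chromosome 2 (174267504 to 174267585, minus strand) and Mir582 on chromosome 13 (109324744 to 109324824, plus strand). Mir146b lies on chromosome 19 (46342762 to 46342870, plus strand), within an intron of Mfsd13a. Among those lower in KO, Mir147 lies on chromosome 2 (122640803 to 122640881, plus strand), Mir212 on chromosome 11 (75173388 to 75173478, plus strand) and Mir504 on chromosome X (59097658 to 59097736, minus strand). Mir212 shares chromosome 11 with the targeted Mir146 (43374397 to 43374461, minus strand). By the GENCODE vM21 annotation, Mir139, Mir146b, Mir582 and Mir504 lie in introns of protein-coding genes on their own strand, and Mir298 has no host.

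Groups of related miRNAs were then compared, each described by its counts and its median beside those of the 251 expressed miRNAs (median 0.09, 1.59% at least 2-fold in each direction). As deposited, the log2 ratio was above 0 for 155 of the 251. Of 11 listed NF-kB–responsive miRNAs, 6 were expressed, of which miR-147-5p and miR-212-5p were at least 2-fold lower in KO and 0 higher. The list leaves out the miR-146 family, although NF-kB induces it. With miR-146b-5p added, a choice made after its value was seen, 1 of 7 was at least 2-fold higher and 2 lower, and the median was -0.18. For the 6, the median log2 ratio was -0.47, against 0.01 for WT B over WT A, and 5 of the 6 were below 0. The median rests on few miRNAs and lies between -0.75 for miR-132-3p and -0.18 for miR-155-5p. It was -0.89 when only miRNAs with whole counts were kept and 0.20 with a minimum of 100 RPM, so that its sign depends on which members are counted. miR-155-5p, the NF-kB–induced miRNA most often studied in activated macrophages, stood at 55.2 RPM in KO and 62.7 in 3′F, and at 71.3 in WT A and 70.3 in WT B. Both mutants lay slightly under both WT cultures. miR-125b-5p stood at 773 RPM in KO and 550 in 3′F, and at 514 in WT A and 515 in WT B, a log2 ratio of 0.49 in the other direction.

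Of the 9 macrophage and myeloid miRNAs, 8 were expressed, with a median log2 ratio of 0.07 (WT B over WT A, -0.13), and 0 were past 2-fold. The listed miR-142a-3p stood at 1115 RPM in KO and 1071 RPM in 3′F, and at 1721 in WT A and 1121 in WT B. Its log2 ratio was 0.06, against -0.62 between the WT cultures. One member differed by over 1.5-fold. miR-342-3p stood at 464 RPM in KO and 754 in 3′F, and at 749 in WT A and 732 in WT B, and its log2 ratio was -0.70. In bulk samples, fewer cells of a type and less RNA per cell cannot be told apart.

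The let-7 family, which restrains proliferation in differentiated cells, had a log2 ratio above 0 in 9 of 9 expressed members as deposited, in 8 with DESeq2's size factors and in 6 with TMM scaling. Its median was 0.28 (WT B over WT A, 0.12) and 0 members were past 1.5-fold. Its largest ratio was that of let-7b-5p, at 0.54, with 1855 RPM in KO, 1272 in 3′F, 1223 in WT A and 1483 in WT B. Among all 251 expressed miRNAs, 155 were above 0 as deposited. The counts of all 9 let-7 members are not whole numbers, so these members may share reads. All 5 members of the miR-99/100 and miR-125 group, many of which are encoded beside let-7 hairpins, were above 0 under each of these scalings, with a median of 0.45 (WT B over WT A, -0.12). miR-100-5p had the largest ratio of that group, at 0.89. It stood at 98.1 RPM in KO and 52.5 in 3′F, and at 45.4 in WT A and 41.8 in WT B, so that KO lay far above the other 3 libraries. The 4 products of the miR-221 and miR-222 cluster, which promotes proliferation in many cell types, were all below 0 under each of these scalings, with a median of -0.27, whereas WT B over WT A was above 0 for each of them, with a median of 0.24. The 7 miRNAs of the miR-23/27/24 clusters had a median of -0.14.

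Of the remaining groups, the median was 0.11 for the 9 listed miRNAs of the miR-17-92 and miR-106b-25 clusters, 0.17 for the 5 of the miR-30 family, 0.11 for the 2 expressed of the miR-29 family and 0.31 for the 3 expressed of the miR-181 family. None of these listed miRNAs was past 1.5-fold. miR-18a-3p, an expressed minor strand of the miR-17-92 cluster that was not listed and is named after its value was seen, had a log2 ratio of 0.63, against 0.71 between the WT cultures. Markers of other cells were set beside these values. Erythroid miRNAs summed to 70.5 RPM in KO and 80.7 in 3′F, and to 171 in WT A and 160 in WT B, below WT in both mutants, and 3 of 5 were expressed, with a median of -0.12. That median rests on miR-486a-5p and miR-486b-5p, at -0.12 each, whose counts are not whole numbers and may share reads. The most specific erythroid miRNA, miR-451a, had a log2 ratio of -0.83. It stood at 4.09 RPM in KO and 8.03 in 3′F, and at 18.7 in WT A and 29.97 in WT B. Lymphocyte miRNAs, of which 3 were listed, summed to 576 RPM in KO and 448 in 3′F, and to 484 in WT A and 559 in WT B, nearly all of it miR-181a-5p and miR-181b-5p, and the B and T cell miRNA miR-150-5p stood at 2.51 RPM in KO and 1.54 RPM in 3′F. Their part in the differences above was not tested.

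**Figure D5:**
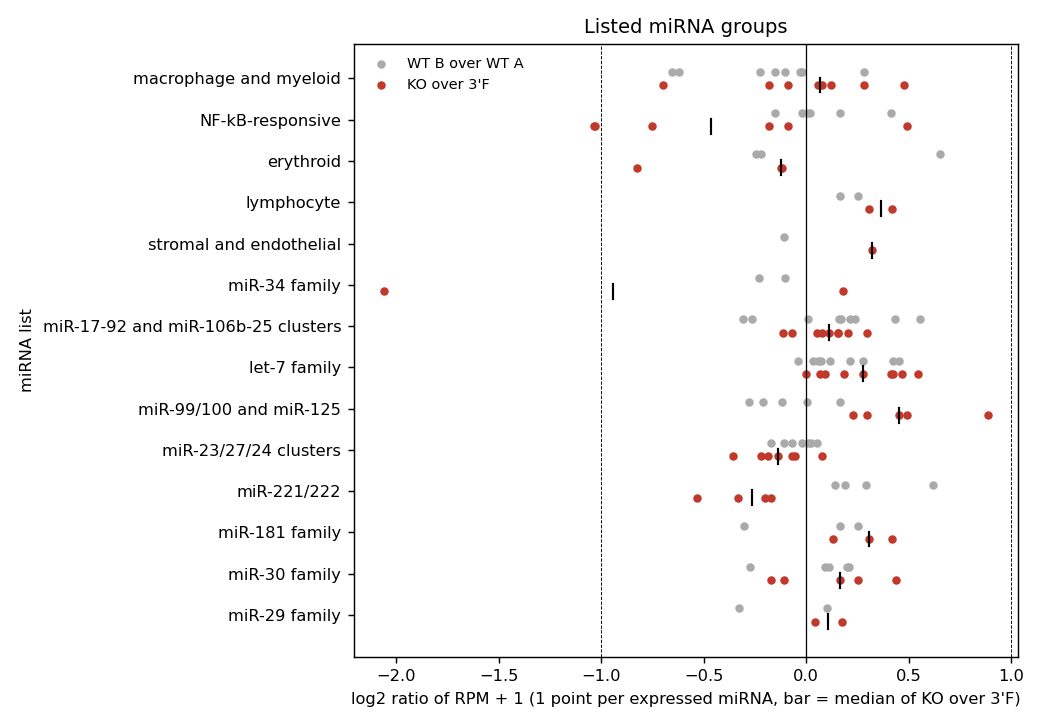
log2 ratio of RPM + 1 (x axis) of each expressed miRNA in 14 listed groups (rows), with KO over 3′F in red, its median as a black bar, and WT B over WT A in grey. The let-7 and the miR-99/100 and miR-125 groups lie wholly above 0 and the miR-221 and miR-222 group wholly below 0 for KO over 3′F (with TMM scaling, 3 of the 9 let-7 points fall below 0), and 3 points lie past the dashed 2-fold lines (miR-34c-5p, miR-147-5p and miR-212-5p). Groups of 1 to 3 points also lie on 1 side: lymphocyte, stromal and endothelial, miR-181 and miR-29 above 0, and erythroid below. Among all 251 expressed miRNAs, 155 were above 0.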

How the data were processed

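Small RNA of 4 libraries of resting BMDMs was analysed: WT A, WT B, KO and 3′F. The authors deposited estimated counts for 2129 precursor lines, which are not whole for 99 of the 251 expressed miRNAs (read here as multi-mapped reads divided between lines), and RPM values, which are each count divided by the library's sum over all lines. Inserts of 18 to 35 nt were selected, and the submitters' processing notes name cutadapt 1.8.3. The aligner, counter, genome build and miRNA release are not given in the sources used here.

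Each of the 1979 mature miRNAs was represented by its deposited RPM on 1 precursor line, chosen by the highest count over the 4 libraries (85 miRNAs have several lines). Ratios are differences of log2(RPM + 1), and 251 miRNAs with a mean of at least 10 RPM counted as expressed. Folds are ratios of RPM without a pseudocount, with exact binomial 95% intervals on rounded counts. Intervals and the floor of 3 counts cover counting error only, since reads are not independent molecules. With totals of 11410940 to 19087640 counts, that error is small for abundant miRNAs and larger toward 10 RPM. For miR-147-5p and miR-212-5p the interval reaches below 2-fold. Cultures vary beyond counting error. KO and 3′F have 1 library each, so no p-value was computed.

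Named miRNAs are the miR-146 family, every expressed miRNA at least 2-fold apart with the other products of its hairpin or of hairpins within 10 kb, the 10 most abundant, and the listed groups. The comparison, the lists and these rules were chosen with earlier results of these data known, and the lists come from general knowledge. Sequences and positions are from RefSeq (GRCm38.p6), which matched 1679 of the 1979 miRNAs by name (228 of the 251 expressed), and host genes from GENCODE vM21. The 3′F sequence is that of the study's mimic. Products of the miR-34b hairpin were named as members of the miR-34 list.

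The alternatives were scaling by TMM (edgeR) or by size factors (DESeq2, estimated on rounded counts), and RPM over 1 line per miRNA. Others were a pseudocount of 0.1, minimums of 1 and 100 RPM, and a minimum over KO and 3′F only or none. Also run were every line, whole counts only, each WT library left out, and thresholds of 1.5-fold and 3-fold. The functions were tested on simulated data. Python 3.11.15 (numpy 2.4.6, pandas 2.3.3, scipy 1.17.1, matplotlib 3.10.9) and R 4.3.3 (edgeR 4.0.16, DESeq2 1.42.0) were used.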

Additional observations from a re-analysis of the deposited data

How the results depend on the processing

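The count of 8 miRNAs at least 2-fold apart between KO and 3′F became 18 with a minimum of 1 RPM, 18 with no minimum, 2 with a minimum of 100 RPM, 24 at a threshold of 1.5-fold and 1 at 3-fold. It was 9 with TMM, DESeq2's size factors, RPM over 1 line per miRNA or a pseudocount of 0.1, 8 without WT A, without WT B, with every line or with a minimum over KO and 3′F only, and 6 with whole counts only. Of the 8 named miRNAs, 8 were past 2-fold under each of these 3 scalings and the lower pseudocount. With the minimum over KO and 3′F only, 5 were higher in KO and 3 lower. Under that setting miR-147-5p dropped out and miR-125b-1-3p, at 14.7 RPM in KO and 6.36 in 3′F, entered. Between WT B and WT A, 1 miRNA was past 2-fold with that minimum, 1 without WT A, and 4 with a minimum of 1 RPM or none. TMM lowered the median ratio of expressed miRNAs by the most of the scalings, to -0.01 from 0.09. The SD of 0.401 became 0.251 with no minimum, where most miRNAs are near 0 in both libraries. The ratios of the summed family and of its miR-146a and miR-146b 5p strands, and the level of the 3′F miRNA, moved by less than the spread used for them under the alternatives run. Among single miRNAs and groups, 523 recomputed values moved by less than the SD of WT B over WT A (0.261) and 22 by more, most of them for miRNAs under 10 RPM with a pseudocount of 0.1 or for groups of few members. The median of the miR-34 family was -1.75 with a minimum of 1 RPM and 0.18 with whole counts only. No paired analysis was possible because each mutant genotype has a single library. Depth limits what can be said below about 0.185 RPM, and every comparison rests on 1 KO and 1 3′F library.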

Other observations

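Below the expression minimum, 188 miRNAs had a mean between 1 and 10 RPM. Of these, 10 lay at least 2-fold apart between KO and 3′F, 5 in each direction, and 4 did so between WT B and WT A. Besides the 3′F miRNA, miR-146b-3p, miR-296-5p, miR-34c-3p and both strands of miR-34b, they include miRNAs that were named after their values were seen. miR-125b-1-3p, the minor strand of a miR-125b hairpin, had 280 counts in KO and 103 in 3′F, with 82 in WT A and 45 in WT B, a log2 ratio of 1.09. miR-5129-5p had 97 counts in KO and 20 in 3′F, with 22 in WT A and 36 in WT B, and miR-6966-3p had 5 in KO and 29 in 3′F, with 25 in WT A and 10 in WT B. For miR-125b-1-3p the KO value lay outside both WT values and 3′F much closer to them.

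miR-1948-5p, also named after its values were seen, had 105 counts in KO and 0 in 3′F, but 19 in WT B and 0 in WT A. At 5.50 RPM, KO was at least 29.7-fold higher than the 0.185 RPM that 3 counts represent in 3′F. It was the only miRNA with at least 10 counts in KO and 0 in 3′F, and the only one with at least 10 counts in WT B and 0 in WT A, so that its presence differed within the wild type too. In the other direction, the 3′F miRNA was the only one with at least 10 counts in 3′F and 0 in KO.

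Among expressed miRNAs outside the naming rule, miR-1964-3p, chosen after its values were seen, lay nearest to the 2-fold threshold on the lower side, with 91.7 RPM in KO, 182 in 3′F, 163 in WT A and 191 in WT B and a log2 ratio of -0.98. miR-3963, chosen in the same way, stood at 67.2 RPM in KO and 41.7 in 3′F, and at 18.98 in WT A and 37.9 in WT B. Its ratio of 0.68 for KO over 3′F was smaller than the 0.96 for WT B over WT A, the widest of all expressed miRNAs between the WT cultures.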
